A study of Sus scrofa with 33 samples.

Results

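Gene expression in the pituitary gland of F1 pigs, crosses of Large White and Creole, was compared with the mid-parent, the average of the means of the parental breeds. All 33 arrays were used, and the breed was read from the sample titles: 11 arrays were F1, 11 Large White and 11 Creole. Each array held RNA of the pituitary of a castrated male growing pig, and the study's methods name the anterior lobe as the part sampled. Pigs were kept in thermoneutral (TN, 24 °C) or heat stress (HS) conditions, and the labels of the HS arrays give both 30 °C and an exposure of 5 days at 32 °C. The TN groups held 5 Large White, 5 Creole and 6 F1 arrays, and the HS groups 6 Large White, 6 Creole and 5 F1 arrays. Per the study's methods, the pigs of a breed came from a few blocks of littermates, and each pen held pigs of 1 breed. Litters and pens were thus nested within breeds. The litter and pen of each array are unknown here, so neither entered the fit. The p-values therefore measure only the spread between these animals and make no allowance for shared litters or pens. The breed of the F1 dams is not in the labels.

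A first-generation cross carries a nuclear gene copy from each parental breed. If each copy is expressed as in its own breed, the cross lies midway between the parents, which is called additive. Dominance places the cross at the level of 1 parent, and over- or underdominance places it above or below both. Mitochondrial DNA comes from the mother alone, and its protein-coding genes encode subunits of the respiratory chain and of ATP synthase. The pituitary makes peptide hormones in several endocrine cell types, which lie among folliculostellate, vascular and stromal cells.

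Each probe gave a log2 intensity, so a difference of 1 is a 2-fold change. Of 45667 probes in the table, 40722 exceeded the background clearly on each of the 33 arrays, and 19682 of these carried the symbol of 1 of 9373 genes. The results below concern these probes. Median intensity per array was 131 to 157 in F1 and 136.5 to 165 in the parental breeds, and no feature was saturated. The array called Large White HS replicate 3 has a Large White title but Creole in its breed field. At 132 probes the other 10 Large White arrays were separate from all 11 Creole arrays, and there it was nearer the Large White mean at 109. It was analysed as Large White. Large White TN replicate 2 stood apart from its group at 5 of the probes named here. In whole tissue, fewer cells of a type and less RNA per cell cannot be told apart.

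F1 pigs departed from the mid-parent at a small share of probes. In limma's moderated test, 1313 of 45667 probes of the table (2.88%) differed from the mid-parent at an adjusted p under 0.05. Among the 40722 probes above background, 1252 did so (3.07%), with 470 higher in F1 (1.15%) and 782 lower (1.92%). With the scanner's processed signal in place of the deposited values, 432 were higher and 446 lower. The F1 mean was outside both parental means at 1244 of the 1252 and at 66.5% of the 40722, and where the parents hardly differ a departure from the mid-parent lies outside both almost by construction. F1 differed from Creole at 2934 probes (7.2%) and from Large White at 630 (1.55%), and the parental breeds differed from each other at 2729 (6.7%). No probe had all 11 F1 arrays above all 22 parental arrays (0%), and none had all 11 below (0%). The count of 1252 depended on single F1 arrays: it was 515 without F1 HS replicate 2 and 2167 without F1 HS replicate 3.

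The 1252 probes were sorted by the differences from each parent. Overdominant probes, higher than both parents with both differences called, numbered 62 (0.152%) and carried the symbols of 26 genes. Of these probes, 20 belonged to mitochondrial genes. Underdominant probes, lower than both, numbered 149 (0.366%) with 61 genes. Leaving out 1 array gave 23 to 123 overdominant and 55 to 420 underdominant probes. At 820 further probes F1 lay outside both means but differed from only 1 parent, and at 93 it differed from neither. F1 matched Large White at 106 probes (0.26%) and Creole at 21 (0.0516%), and at 38 to 163 and 9 to 42 with 1 array left out. Matching means that the parents differed, that F1 differed from 1 of them, and that its unadjusted p against the other was 0.05 or more. The remaining 1 of the 1252 fell in none of these classes. Additive probes, which are not among the 1252, numbered 24 (0.0589%). There F1 lay between parents that differed from each other and from F1, and the unadjusted mid-parent p was 0.05 or more.

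**Figure D1:**
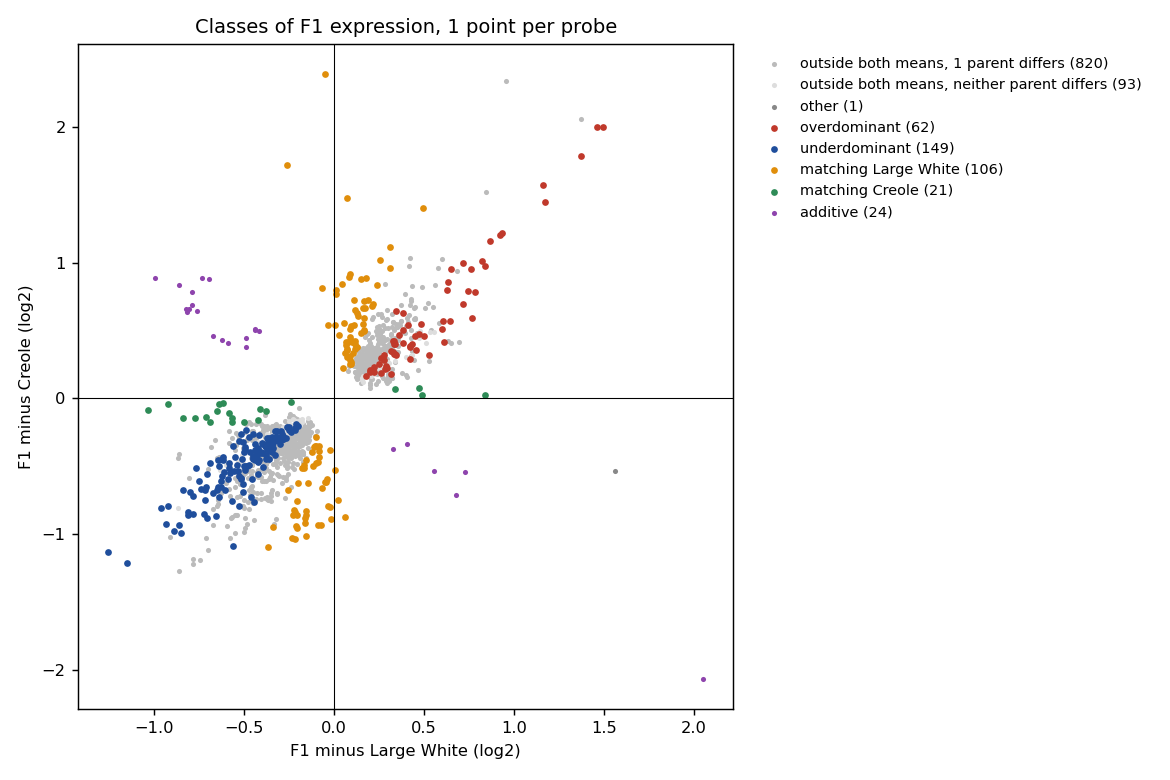
Log2 difference of F1 from Large White (horizontal axis) and from Creole (vertical axis), 1 point for each of the 1252 probes that differed from the mid-parent and the 24 additive probes. The 62 overdominant probes lie at the upper right, the 149 underdominant probes at the lower left, and matching probes along an axis.

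The underdominant genes farthest from the parents included PTPMT1, a mitochondrial phosphatase needed to make cardiolipin. Its log2 intensity in F1 ran from 8.22 over a median of 9.23 to 10.62. In Large White it ran from 10.23 over 10.65 to 10.84, and in Creole from 10.42 over 10.65 to 11.02. In 8 of 11 F1 arrays PTPMT1 was below every parental array, and in the other 3 it was within the parental range. The F1 mean was 9.44 ± 0.87 (SD, n = 11) against 10.60 ± 0.20 in Large White and 10.66 ± 0.20 in Creole. This put F1 2.27-fold below the mid-parent (log2 difference -1.18, SE 0.19, limma adjusted p = 0.00184). The fit shares 1 variance among the 3 breeds. Where F1 spreads more widely than both parents, as here, the SE and adjusted p understate that spread. PTPMT1 had 1 probe.

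Lumican (LUM), a collagen-binding proteoglycan of the same class, ran from 6.23 over 6.57 to 8.08 in F1. Its parental values ran from 7.36 over 8.02 to 9.90 in Large White and from 7.51 over 8.004 to 8.97 in Creole, and 7 F1 arrays were below all of them. The difference of -1.19 (SE 0.21, limma adjusted p = 0.00318) belonged to the strongest of 10 probes, of which 5 were called lower, and the differences ran from -1.19 to -0.04. The brightest LUM probe was not called (-0.09).

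GPM6B, a membrane glycoprotein of neural cells, ran from 7.58 over 8.35 to 9.32 in F1, and its lowest parental value was 8.95. It was below every parental array in 9 of 11 F1 arrays and differed from the mid-parent by -0.90 (SE 0.16, limma adjusted p = 0.00305), at 1 of its 4 probes. The angiopoietin receptor TEK, an endothelial tyrosine kinase, ran from 7.61 over 8.57 to 9.47 in F1, from 9.03 over 9.30 to 9.79 in Large White and from 8.94 over 9.33 to 9.73 in Creole. It was lower by a log2 difference of -0.73 (SE 0.15, limma adjusted p = 0.00733), with 2 of 4 probes called.

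DPYD, the first enzyme of pyrimidine breakdown, was lower at both of its probes (-0.76 and -0.68). At the stronger probe F1 ran from 8.59 over 9.97 to 10.74, Large White from 10.28 over 10.73 to 10.88 and Creole from 10.14 over 10.52 to 10.73, so that 7 F1 arrays were below both breeds.

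EIF3A, a large subunit of translation initiation factor 3, ran from 8.20 over 9.39 to 10.11 in F1, and its lowest parental value was 9.76. It differed by -0.65 (SE 0.13), with 2 of 4 probes called, and by -0.19 as the mean of its probes. PABPC1, which binds poly(A) tails, differed by -0.75 (SE 0.15), but at 1 of 14 probes only, and the others reached 0.10. MTRF1, a release factor of mitochondrial translation, differed by -0.74 (SE 0.14) with 3 of 6 probes called. SELENOF, a selenoprotein of the endoplasmic reticulum, differed by -0.66 (SE 0.14), and 5 of its 6 probes were called lower. The 9 underdominant genes named here were below the mid-parent on each of the 5 slides, all of which held arrays of all 3 breeds. They were chosen on these same arrays, so this describes them only, and over all 40722 probes the difference had 1 sign on all slides at 19.9%.

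Nuclear genes above both parents were led by NISCH, an integrin-binding protein also known as the imidazoline receptor. NISCH ran from 7.23 over 8.44 to 9.5 in F1. In Large White it ran from 7.24 over 7.36 to 7.76 and in Creole from 7.09 over 7.28 to 7.55, so that 7 of 11 F1 arrays were above every parental array. Its F1 mean of 8.27 ± 0.82 (SD, n = 11) was 1.87-fold above the mid-parent (log2 difference 0.91, SE 0.17, limma adjusted p = 0.00464). The SD was 0.17 in Large White and 0.13 in Creole, so the SE and adjusted p of NISCH understate the spread of F1 too. Of its 5 probes 1 was called, and the lowest of the 5 differed by -0.03. As the mean of the 5 probes the difference was 0.21, still called.

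The microtubule-associated protein MAP2 ran from 11.99 over 12.43 to 13.01 in F1, from 11.50 over 11.78 to 12.39 in Large White and from 11.55 over 11.87 to 12.15 in Creole. It was higher by 0.55 (SE 0.10, limma adjusted p = 0.00272), with 6 F1 arrays above all parental arrays and 1 of 3 probes called. Scinderin (SCIN), which severs actin filaments in secretory cells, was higher by 0.51 (SE 0.10) at 1 of 2 probes. PDK3, a kinase that inhibits pyruvate dehydrogenase, was higher by 0.59 (SE 0.11) at 1 of 3 probes, and IFRD1, a transcriptional coregulator, by 0.68 (SE 0.14) at 1 of 5. With the mean of all probes of a gene in place of 1 probe, SCIN, PDK3 and IFRD1 were not called (0.13, 0.06 and 0.09), nor were GPM6B (-0.36) and PABPC1 (-0.17). MAP2 (0.22), LUM (-0.52), MTRF1 (-0.34), TEK (-0.41) and SELENOF (-0.38) stayed called with smaller differences.

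**Figure D2:**
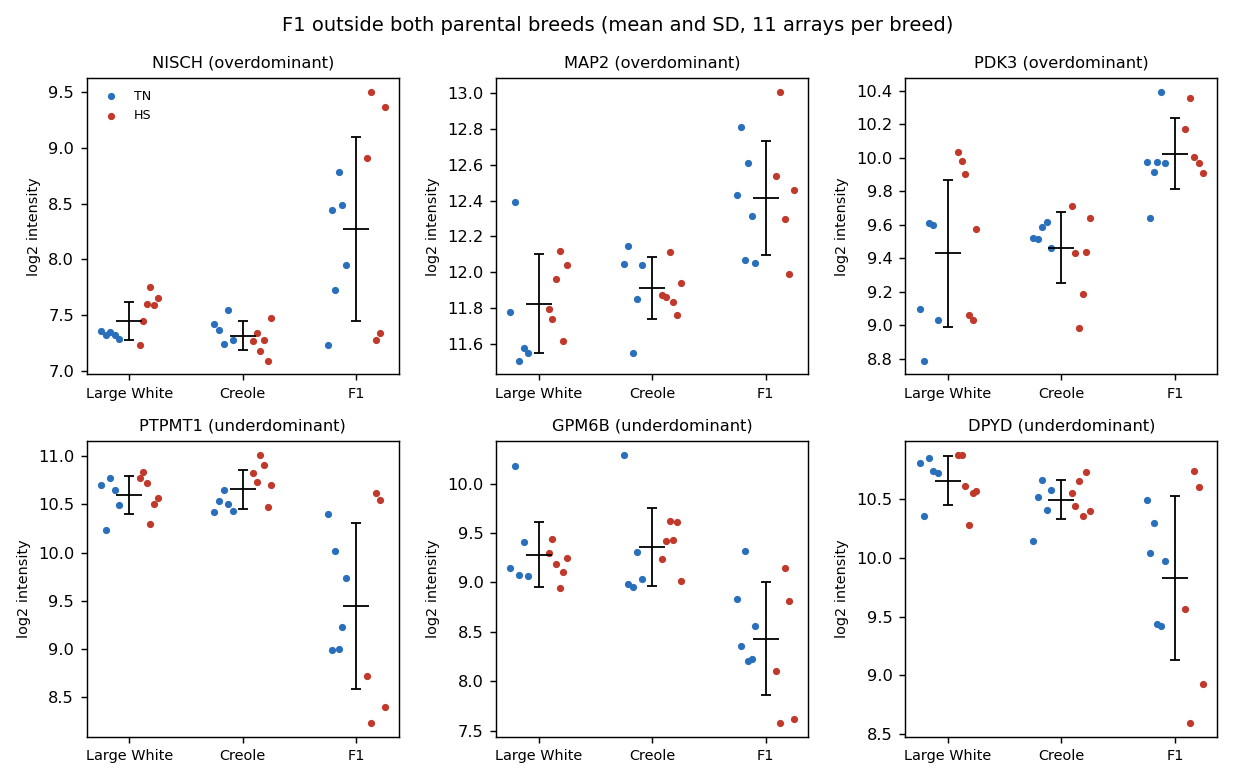
Log2 intensity (vertical axes) of 3 overdominant genes (upper row) and 3 underdominant genes (lower row) in each array by breed, TN in blue and HS in red, with the mean and SD of the 11 arrays per breed. F1 spreads more widely than either parent for NISCH, PTPMT1, GPM6B and DPYD, and for each gene some F1 arrays lie within the parental range.

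The departure was uneven among the F1 pigs. PTPMT1 was 8.72, 8.22, 10.62, 10.55 and 8.39 in F1 HS replicates 1 to 5, and 10.405, 8.99, 10.015, 9.002, 9.23 and 9.74 in F1 TN replicates 1 to 6. NISCH was 8.91, 9.5, 7.28, 7.34 and 9.37 in the same HS arrays, and 7.23, 8.44, 7.73, 8.79, 8.48 and 7.95 in the same TN arrays. The 3 F1 arrays in which PTPMT1 was within the parental range, TN replicate 1 and HS replicates 3 and 4, were also the 3 with the lowest NISCH. Averaged over the 149 underdominant probes, the difference from the parental average ran from -1 to -0.13 over the F1 arrays and from -0.19 to 0.12 over the parental arrays. Over the 42 overdominant probes outside the mitochondrial genome it ran from 0.26 to 0.72 in F1 and from -0.13 to 0.13 in the parents. Both averages describe probes chosen by these same values.

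**Figure D3:**
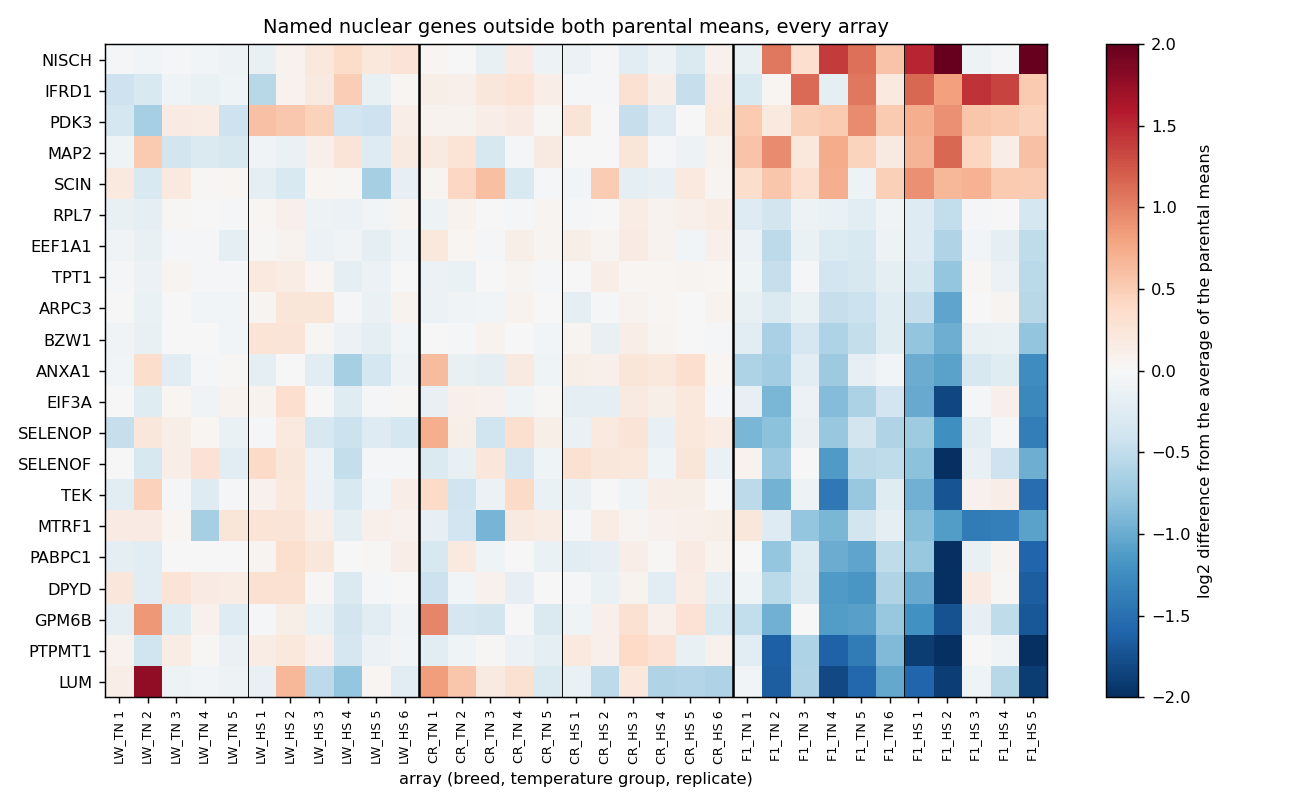
Log2 difference of each array (columns, by breed, temperature group and replicate) from the average of the parental means, for 21 named nuclear genes (rows), red above and blue below, with the colour scale ending at 2 in each direction. F1 HS replicates 2 and 5 depart the farthest for most genes, and F1 TN replicate 1 and F1 HS replicates 3 and 4 stay near the parental level for most, with IFRD1, PDK3, SCIN and MTRF1 among the exceptions.

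Many probes of a few abundant transcripts were lower in F1 by small amounts, though not all of them under another scaling. EEF1A1, the elongation factor that brings aminoacyl-tRNA to the ribosome, was called lower at 21 of 21 probes, with differences from -0.61 to -0.19. At its strongest probe F1 ran from 16.35 over 16.69 to 16.88, Large White from 16.74 over 16.87 to 17.02 and Creole from 16.88 over 17.02 to 17.16. The difference was -0.28 (SE 0.05, limma adjusted p = 0.00352), and 6 F1 arrays were below all parental arrays. TPT1, a growth-related protein, was lower at 11 of 19 probes and the ribosomal protein RPL7 at 9 of 17. From the processed signal, scaled to its 75th percentile, the strongest probes of EEF1A1 (-0.19, limma adjusted p = 0.0965), TPT1 (-0.23, 0.104) and RPL7 (-0.16, 0.228) were not called. BZW1, a regulator of start codon choice, was lower at 6 of 12 probes, and at its strongest (-0.49, SE 0.07) 9 of 11 F1 arrays were below all parental arrays. EEF1A1, TPT1, RPL7 and PABPC1 have near-identical copies in mammalian genomes, so which copies their probes read is uncertain.

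Annexin A1 (ANXA1), a glucocorticoid-induced protein of folliculostellate cells, was lower at 9 of 9 probes, from -0.61 to -0.28. Selenoprotein P (SELENOP), the selenium transporter, was lower at 9 of 12 probes, and ARPC3, a subunit of the actin-branching Arp2/3 complex, at 7 of 9 (its strongest probe not from the processed signal, limma adjusted p = 0.0586). At the strongest SELENOP probe F1 ran from 11.17 over 11.84 to 12.53, Large White from 12.10 over 12.42 to 12.77 and Creole from 12.16 over 12.70 to 13.29. In all, 90 genes had 2 or more probes called in 1 direction outside both parental means and no larger number of other probes, and 31 of them were higher and 59 lower.

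Underdominant probes were low in GC content, and most markers of folliculostellate cells, fibroblasts, leukocytes and endothelium lay below the mid-parent without being called. The underdominant probes had a median GC content of 35%, against 41.7% for probes that were not called. The share of underdominant probes was 0.809% among probes with 35% GC or less, 0.39% from there to 40%, 0.185% up to 45% and 0.0542% above. When the GC trend of each array was removed, an alternative chosen after seeing the data, 136 of the 149 underdominant and 61 of the 62 overdominant probes remained in their class. By the brightest probe of each gene, 0 of 5 folliculostellate markers, 0 of 5 fibroblast markers, 0 of 6 leukocyte markers and 1 of 6 endothelial markers were above the mid-parent, against 56.9% of all genes. So were 1 of 3 erythroid, 1 of 2 posterior lobe and 1 of 2 intermediate lobe markers, and in a longer leukocyte list 6 of 19 genes (31.6%). In these marker lists, 1 marker each of the folliculostellate, leukocyte and endothelial lists was called lower. The mean level of the folliculostellate markers was 11.68 to 12.06 in F1, 11.76 to 12.44 in Large White and 11.95 to 12.69 in Creole. The medians over arrays were 11.84, 11.91 and 12.12 in that order. The mean of the fibroblast markers was 11.54 to 12.23 in F1 (median 11.84), 11.48 to 12.48 in Large White (11.69) and 11.78 to 12.72 in Creole (12.28), so that the F1 median lay between the parents. Against the parental average, the 2 F1 arrays with the lowest average of the underdominant probes, F1 HS replicates 2 and 5 (-1 and -0.86), had fibroblast means of -0.27 and 0.20, endothelial means of -0.14 and -0.53 and folliculostellate means of -0.27 and -0.38. The 3 with the highest, F1 HS replicates 3 and 4 and F1 TN replicate 1 (-0.14, -0.13 and -0.17), had fibroblast means of -0.49, -0.41 and -0.26, endothelial means of -0.12, -0.13 and -0.10 and folliculostellate means of -0.17, -0.23 and -0.34. Over all 11 F1 arrays the fibroblast mean ran from -0.49 to 0.20, the endothelial from -0.53 to 0.08 and the folliculostellate from -0.38 to 0.0043. The endothelial mean had a median of 9.88 over the F1 arrays, 10.13 over Large White and 9.76 over Creole. The part of cell composition in these results was not tested.

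Transcripts of the mitochondrial genome were higher in F1 at many probes. They were grouped after the values were seen. Of the 127 probes for the 13 genes, 68 were called higher, 1 was called lower (in ND6), 20 were overdominant, and the median difference was 0.28. Over all 40722 probes 1.15% were called higher, 1.92% lower and 0.152% were overdominant, with a median of 0.01. Because mitochondrial DNA comes from the mother alone, F1 carries no copy from each breed. For these genes, mid-parent and overdominant only describe levels and do not speak of additive or non-additive expression. Among complex I subunits, ND2 was called higher at 12 of 12 probes, ND1 at 18 of 20 and ND4 at 1 of 11. The complex IV subunits COX1 and COX3 were called at 6 of 25 and 8 of 14 probes, the complex III subunit CYTB at 8 of 21, and the ATP synthase subunit ATP6 at 6 of 9. At the ND2 probe that stands for the gene, F1 ran from 14.81 over 15.07 to 15.34, Large White from 13.32 over 13.98 to 15.11 and Creole from 13.39 over 13.81 to 14.99. Its difference was 1.01 (SE 0.18, limma adjusted p = 0.00318), and 5 F1 arrays were above all parental arrays.

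Probes for the same mitochondrial transcript gave different results. COX1 differences ran from -0.03 to 1.72. The 4 pairs of overlapping probes printed here were chosen after the values were seen because each pair reads nearly the same stretch and differs in its result. Capitals mark the bases inside the overlap that differ between the probes, and all sequences are those of the array's probes, 5′ to 3′.
COX1 first probe: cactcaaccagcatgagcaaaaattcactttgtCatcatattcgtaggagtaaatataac
COX1 second probe: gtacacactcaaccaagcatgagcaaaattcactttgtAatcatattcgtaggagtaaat
COX2 first probe: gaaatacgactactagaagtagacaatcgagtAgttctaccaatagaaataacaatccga
COX2 second probe: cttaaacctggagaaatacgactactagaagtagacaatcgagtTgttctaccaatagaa
ND2 first probe: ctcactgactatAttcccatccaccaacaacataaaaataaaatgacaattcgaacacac
ND2 second probe: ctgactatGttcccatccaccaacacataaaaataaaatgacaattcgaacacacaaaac
CYTB first probe: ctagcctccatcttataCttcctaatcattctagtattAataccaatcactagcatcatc
CYTB second probe: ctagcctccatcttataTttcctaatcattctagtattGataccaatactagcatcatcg

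Positions count from 1 at the 5′ end of the first probe, whose base comes first. The COX1 probes differ by C34A, and their mid-parent differences were 1.72 (SE 0.35) and 0.13 (SE 0.04). The COX2 probes differ by A33T, with 1.65 (SE 0.38) and 0.41 (SE 0.07). The ND2 probes differ by A13G, with 1.75 (SE 0.33) and 0.81 (SE 0.17). The CYTB probes differ by C18T and A39G, with 0.80 (SE 0.15) and 0.11 (SE 0.03). Their overlaps also held 2 gap bases in the COX1 pair and 1 gap base each in the ND2 and CYTB pairs. Among all pairs of mitochondrial probes with 40 or more aligned bases and at most 4 differences, 46 had no substitution inside the overlap, and the mid-parent differences of their probes were 0.05 apart at the median, with 2 pairs over 0.5. In the 21 pairs with a substitution they were 0.25 apart at the median, with 5 pairs over 0.5.

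At the first probes the parental arrays were spread widely and the F1 arrays were not. The first ND2 probe ran from 15.72 over 15.93 to 16.14 in F1, from 12.72 over 13.89 to 16.03 in Large White and from 12.62 over 13.83 to 15.89 in Creole. No parental array lay between 14.14 and 15.71. Above this gap were 6 of 22 parental arrays, namely 2 Large White TN, 2 Large White HS, 1 Creole TN and 1 Creole HS, and all 11 F1 arrays. The same 6 were the highest parental arrays at 37 of the 127 probes, all of which were among the 68 called higher. At the second COX1 probe the breeds overlapped, with F1 from 18.10 to 18.20, Large White from 17.86 to 18.18 and Creole from 17.74 to 18.20. The first probes were also dimmer. Mean levels of the first and second probe over all arrays were 15.81 and 18.06 for COX1 and 14.94 and 17.01 for COX2. They were 14.78 and 15.92 for ND2 and 17.28 and 17.34 for CYTB. The amount of a transcript, its match to the probe and the brightness of the probe cannot be told apart in these values.

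**Figure D4:**
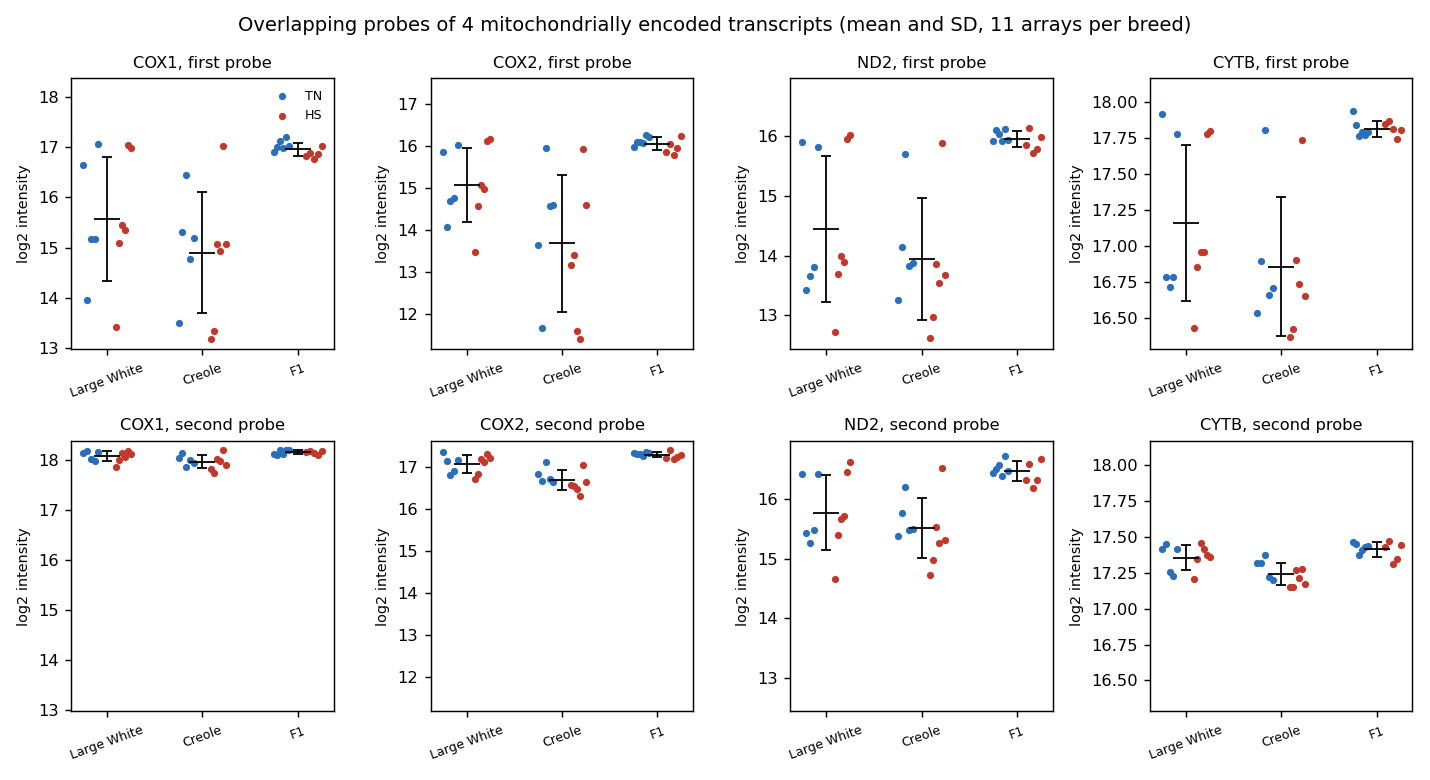
Log2 intensity (vertical axes, shared within a column) at the first probe (upper row) and second probe (lower row) of the 4 mitochondrial pairs in each array by breed, TN in blue and HS in red, with the mean and SD of the 11 arrays per breed. At the first probes the parental arrays spread over more than the F1 arrays, and at the second probes of COX1 and CYTB the breeds lie close together.

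At probes where F1 matched Large White, 59 were higher and 47 lower than the mid-parent, and the F1 mean lay between the parental means at 7. The largest mid-parent difference was that of ODF3B, named after sperm outer dense fibres (1.17, SE 0.19). With a linear mid-parent it was 0.71 and not called (limma adjusted p = 0.0553). It had 7 F1 arrays within the Large White range, 2 between the parental ranges and none within the Creole range. SRPX, a sushi-repeat protein of the matrix, was called lower than the mid-parent at 4 of 4 probes. Its F1 values ran from 6.90 over 7.28 to 7.93, Large White from 6.70 over 7.57 to 8.18 and Creole from 7.93 over 8.10 to 9.34. All 11 F1 arrays were within the Large White range and none within the Creole range. F1 was 1.04 below Creole on the log2 scale (difference -1.04, limma adjusted p = 0.000183), and its difference from Large White was -0.22 with a 95% interval of -0.54 to 0.11.

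The other named matches to Large White included the complement component C3, which was within the Large White range alone in 10 F1 arrays and within both ranges in 1, with a difference from Large White of -0.21 (95% interval -0.54 to 0.13). Its mid-parent call was lost with the array of conflicting labels taken as Creole (limma adjusted p = 0.0578) and with the mean of its probes (0.0514). It was also lost without F1 HS replicate 1, 2 or 5, F1 TN replicate 1, 2 or 4, or Large White TN replicate 4 (up to 0.0815). TAOK3, a kinase of the stress-activated cascade, was within the Large White range alone in 9 F1 arrays, with a difference from Large White of 0.31 (interval -0.07 to 0.68) and from Creole of 1.12. The lipocalin APOD and the chitinase-like CHI3L1 were below Creole by -1.10 and -0.92. The mid-parent call of CHI3L1 was lost from the processed signal (limma adjusted p = 0.0558), without the temperature term (0.0611) and without F1 TN replicate 2 or F1 HS replicate 5 (up to 0.0598), and that of APOD without F1 TN replicate 4 (0.0506). The intervals for Large White reach 0.78 below it for APOD (-0.78) and 0.48 below it for CHI3L1 (-0.48), so that these genes were not shown to be equal in F1 and Large White. When the array with conflicting labels was taken as Creole, 35 probes matched Large White instead of 106.

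Matches to Creole were rarer, and 17 of the 21 probes were lower than the mid-parent. SLCO2B1, a transporter of organic anions, ran from 7.95 over 8.70 to 9.15 in F1, from 8.76 over 9.49 to 10.36 in Large White and from 8.11 over 8.65 to 9.07 in Creole, and both of its probes were called. F1 was lower than Large White (-0.93, limma adjusted p = 0.00123), and its difference from Creole was -0.04 (95% interval -0.34 to 0.25). NUDT9, which hydrolyses ADP-ribose, was within the Creole range in all 11 F1 arrays, 9 of them outside the Large White range, with a difference from Creole of -0.09 (interval -0.45 to 0.28). The others were GALNT1, which starts mucin-type O-glycosylation, RBM7, a cofactor of the nuclear exosome, RFESD and the deaminase RIDA, with mid-parent differences of -0.43 to -0.35. Calls were fragile here. NUDT9, RBM7 and RIDA had adjusted p-values of 0.043, 0.0414 and 0.0443 for the mid-parent difference. NUDT9 was not called from the processed signal (limma adjusted p = 0.0867), with array weights (0.0871), with the array of conflicting labels taken as Creole (0.0504) or as the mean of its probes (0.057). RBM7 was not called with array weights (limma adjusted p = 0.0986) or with the other label of that array (0.0527), and RIDA not as the mean of its probes (-0.26, 0.218). Of 33 leave-one-out fits, NUDT9 lost its call in 22, RIDA in 21 and RBM7 in 17. SLCO2B1 was not called with the array of conflicting labels taken as Creole (limma adjusted p = 0.0585), without the temperature term (0.0529), or without F1 HS replicate 1, 2 or 5 or F1 TN replicate 2 (up to 0.0968). RFESD was not called as the mean of its probes (-0.16, limma adjusted p = 0.325), from the processed signal (0.0676) or without F1 HS replicate 1, 2 or 5 or F1 TN replicate 2, 4 or 5 (up to 0.0706), and GALNT1 not without F1 HS replicate 2 (0.0559).

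**Figure D5:**
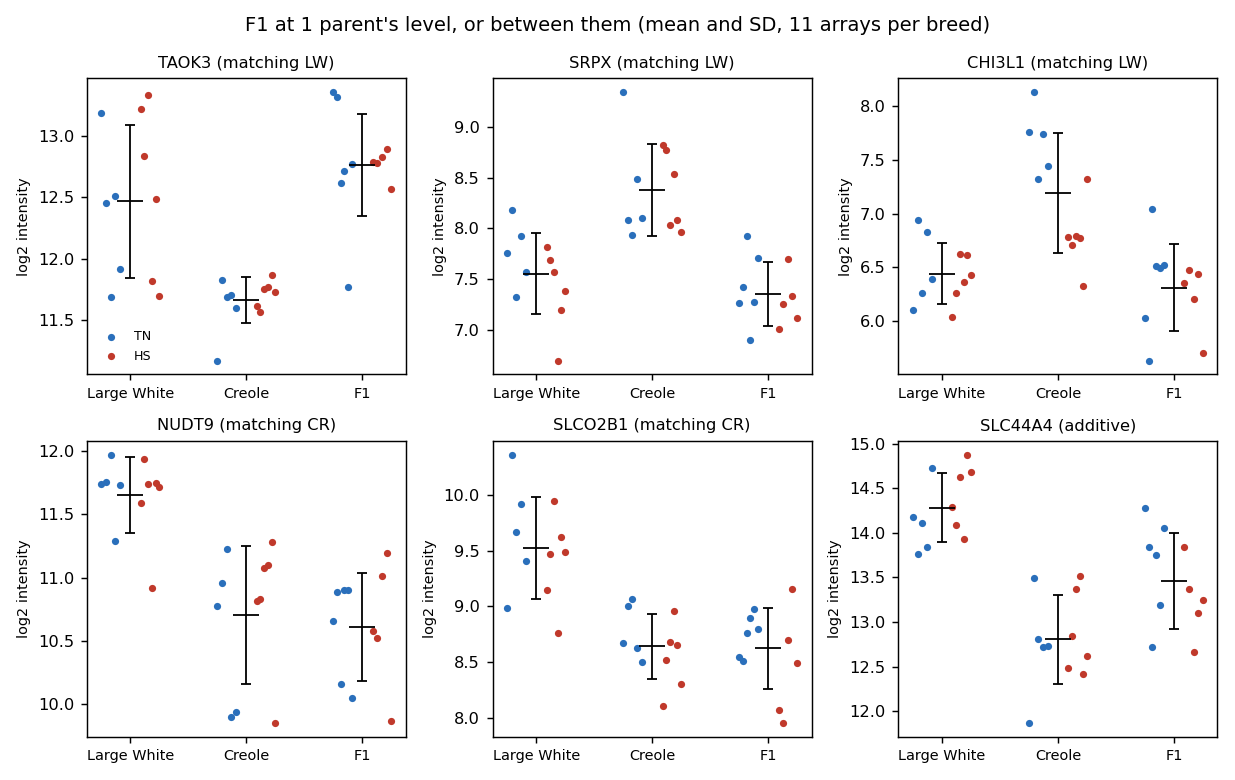
Log2 intensity (vertical axes) of 3 genes matching Large White, 2 matching Creole and 1 additive gene in each array by breed, TN in blue and HS in red, with the mean and SD of the 11 arrays per breed. All 11 F1 arrays lie within the Large White range for SRPX and within the Creole range for NUDT9, and the additive gene SLC44A4 has 4 F1 arrays in the Large White range and 6 in the Creole range.

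Additive means did not always come from F1 arrays midway between the parents. For SLC44A4, a choline-like transporter, F1 ran from 12.66 over 13.37 to 14.28, with 4 arrays within the Large White range (13.76 to 14.88), 6 within the Creole range (11.86 to 13.52) and 1 between them. The additive SELENOF probe had a mid-parent difference of -0.01 (SE 0.42), with 4 F1 arrays in each parental range and 3 between, while the other 5 SELENOF probes were called lower. OAZ3, an antizyme of the ornithine decarboxylase pathway, had 7 F1 arrays within the Large White range alone and 3 within the Creole range alone. Large White HS replicate 3, at 7.31, lay within the Creole range, and without it 4 F1 arrays were in each range and 3 between.

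The mid-parent difference was compared between temperatures. No probe passed for a change of the difference from TN to HS (0%): limma's smallest adjusted p was 0.786, and 1646 probes (4.04%) were below 0.05 without adjustment. In TN alone, 21 probes differed from the mid-parent (0.0516%), and in HS alone 12 did (0.0295%), with fewer arrays in each test. MTRF1 differed by -0.26 in TN and -1.26 in HS (unadjusted p = 8.23e-05 for the change, limma), and IFRD1 by 0.34 and 1.05 (unadjusted p = 0.00984, limma), neither of which passed adjustment.

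None of 7 measured hormone genes was called, beside 3.14% of all genes. Growth hormone (GH1) differed by -0.02 (SE 0.03), POMC, the precursor of corticotropin, by -0.01 (SE 0.03), the shared chain of the glycoprotein hormones (CGA) by 0.02 (SE 0.03) and prolactin (PRL) by 0.05 (SE 0.05). LHB and FSHB, the gonadotropin chains, differed by 0.08 (SE 0.10) and 0.15 (SE 0.13). The thyrotropin chain TSHB differed by 0.64 with an SE of 0.52. Large White TN replicate 2 and Creole TN replicate 1 were at 8.55 and 10.57 while F1 ran from 14.56 to 16.20. The breed means of GH1, POMC and CGA lay between 18.95 and 19.06. Each of these genes had the same highest value, 19.12, and quantile normalization gives the top ranks equal values on every array. A breed difference could therefore hardly show at these probes.

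By the brightest probe of each gene, 118 of 9373 genes were higher than the mid-parent (1.26%) and 176 lower (1.88%). Of 17 pituitary transcription factors measured, 1 was higher, PITX1, which activates several hormone genes (0.26, SE 0.06, limma adjusted p = 0.0192). F1 values of PITX1 ran from 14.99 over 15.16 to 15.30, within the reach of Large White (14.64 over 14.71 to 15.33), and PITX1 was not called from the processed signal (limma adjusted p = 0.0522). Among 26 receptors and regulators of the pituitary axes the thyroid hormone receptor THRB was higher (0.30, SE 0.08), and among 20 secretory granule genes PCSK1N, the precursor of an inhibitor of prohormone cleavage, was higher (0.18, SE 0.05). Both had adjusted p-values near the threshold, at 0.031 and 0.0438 in limma's test. As the mean of its probes THRB was not called (0.16, limma adjusted p = 0.171), nor without the temperature term (0.0716) or without F1 HS replicate 2 or 5 or F1 TN replicate 2, 4 or 5 (up to 0.0813). PCSK1N was not called without the temperature term (limma adjusted p = 0.0505), with the array of conflicting labels taken as Creole (0.0506), or in 21 of 33 leave-one-out fits (up to 0.124).

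Nuclear genes of the respiratory chain, ribosomes and proteasome were read against all genes, of which 3.14% were called and 56.9% lay above the mid-parent. Of 51 nuclear respiratory chain genes, 38 were above it with a median of 0.06, but 1 was called higher (UQCRC2 of complex III, 0.37) and 1 lower (NDUFS4 of complex I, -0.40). UQCRC2 was not called as the mean of its probes (0.20, limma adjusted p = 0.245), from the processed signal (0.0554), or without F1 HS replicate 1 or 2 or F1 TN replicate 2, 4 or 5 (up to 0.0728). NDUFS4 was not called from the processed signal (0.0765), or without F1 HS replicate 1, 2 or 5 or F1 TN replicate 4 or 5 (up to 0.0819). Of 34 proteasome genes, 28 were above it with a median of 0.06 and none was called. Of 55 mitochondrial ribosome genes 39 were above it with a median of 0.05, and 1 was called (MRPL2, 0.17). Of 67 cytosolic ribosome genes 27 were above it (40.3%) with a median of -0.02, and RPL17 was called higher (0.33) and RPS27A lower (-0.39). By the mean of all probes of a gene, 1 cytosolic ribosome gene was higher and 6 lower, 2 respiratory chain genes were higher and 3 lower, and 147 of all 9373 genes were higher and 192 lower. RPS27A (limma adjusted p = 0.0758) and MRPL2 (0.0581) were not called from the processed signal, nor were MRPL2 and RPL17 without F1 HS replicate 1 or 2 (up to 0.0756), or RPL17 without F1 HS replicate 5 or F1 TN replicate 4 (0.0544 and 0.0514). Over all 9373 genes the median was 0.02.

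Antioxidant genes had 3 of 35 members called (8.57%), all lower, against 3.14% of all genes called and 1.88% lower. They were GPX4, which reduces lipid peroxides (-0.40, 5 of 5 probes), SELENOP (-0.65) and SELENOF (-0.30). From the processed signal GPX4 (limma adjusted p = 0.0813) and this SELENOF probe (0.114) were not called. The list's median was -0.01. GPX4 ran from 13.52 over 14.21 to 14.86 in F1, from 14.41 over 14.56 to 14.82 in Large White and from 14.57 over 14.66 to 14.82 in Creole, with 7 F1 arrays below all parental arrays and 1 above. Among 31 cytosolic heat shock genes the transcription factor HSF2 was higher (0.23, SE 0.06), but not from the processed signal (limma adjusted p = 0.0599) or without F1 HS replicate 1, 2 or 5, F1 TN replicate 2 or 4, or Large White TN replicate 4 (up to 0.102), and none of 28 genes of endoplasmic reticulum stress was called.

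By the brightest probe, each immune and stromal list had 1 called gene or none, all lower. Over all genes, 3.14% were called and 1.88% called lower. The macrophage receptor CSF1R (-0.41) was the called member of 19 leukocyte genes (5.26%), the class I gene SLA-6 (-0.66) of 22 antigen presentation genes (4.55%), and the chemokine CXCL10 (-0.73, 3 of 3 probes) of 33 interferon-stimulated genes (3.03%). CSF1R was not called from the processed signal (limma adjusted p = 0.0548). CXCL10 was not called in 23 of 33 leave-one-out fits (up to 0.126), with 1 mean per breed and temperature (0.0517), or with the array of conflicting labels taken as Creole (0.0508). TEK was the called member of 18 endothelial and stromal genes (5.56%), of which 4 were above the mid-parent, and ANXA1 of 10 folliculostellate genes (10%), of which 1 was. None of 38 collagen and matrix genes was called, and 13 were above the mid-parent. By the mean of all probes of a gene, 1 collagen and matrix gene and 2 endothelial and stromal genes were called lower. SF3B5, a subunit of the spliceosome, and MVK, an enzyme of sterol synthesis that matched Large White, were called higher in lists of 55 and 23 genes (0.18 and 0.24). SF3B5 was not called without the temperature term (limma adjusted p = 0.0522), nor MVK as the mean of its probes (0.111) or in 20 of 33 leave-one-out fits. MVK also lost its call from the processed signal (limma adjusted p = 0.0943), without the temperature term (0.063) and with the array of conflicting labels taken as Creole (0.0708). The lists for cell cycle (25 genes), circadian clock (16), immediate early (16), glucocorticoid target (10), erythroid (7), posterior lobe (4) and intermediate lobe genes (2) had no call.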

How the data were processed

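Pituitary RNA of 33 pigs was hybridised to 1-colour Agilent porcine arrays, read as median pixel intensity per probe in the scanner files deposited by the authors. The table deposited by the authors holds log2 values of that intensity after quantile normalization between arrays, which the study's methods attribute to limma for reading and preprocessCore (normalize.quantiles) for normalization. The scanner files were made with Agilent Feature Extraction 10.10.1.1 per the file headers. Of 60305 probes in the scanner files 45667 are in the table, with 59 missing values. A probe was named through its gene name (18701 probes), accession (2430) or a synonym (161).

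Here, limma 3.58.1 in R 4.3.3 fitted 1 mean per breed plus temperature to the log2 table (lmFit, eBayes), with contrasts of F1 against the average of the parental means, against each parent, and between the parents. Tests were two-sided, with Benjamini-Hochberg adjustment over 45667 probes and a threshold of 0.05. Only probes above background (gIsWellAboveBG 1) on all 33 arrays are reported. The study's model also had random effects of pen, slaughter day and parents, which the labels used here do not carry. The number of arrays limits the precision, and 1 variance was shared by all breeds. The code was tested on simulated data.

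Named genes had 1 symbol, and the probe with the smallest mid-parent p stands for the gene. They were up to 10 over- and 10 underdominant genes by distance from the nearer parent, 12 genes with several probes called, 6 genes matching each parent by size of the mid-parent difference, 3 additive genes by parental difference, the called members of 26 gene lists, and 7 hormones. Of the genes given by this rule 2 are not reported here. Gene lists used the brightest probe of a gene. The genes, lists and comparisons were chosen with earlier results of these data known, and the mitochondrial list and probe pairs after seeing the values.

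Alternatives were the scanner intensity normalized here, normexp (offset 50), the processed signal scaled to its 75th percentile, a filter before the fit, slide as a fixed or random block, array weights, a trended robust variance, no temperature term, 1 mean per group, a linear mid-parent, the other label of 1 array, GC trend removal, the mean of a gene's probes, and leaving out each array.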

Additional observations from a re-analysis of the deposited data

Results flagged for a closer look

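Within each group, the highest or lowest array was compared with its nearest neighbour for every named probe, by Dixon's ratio. In 19 of 402 combinations (4.73%) the array lay farther off than the limit, which chance passes in about 5% of groups. Parental groups held 16 of the 19.

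Large White TN replicate 2 held 5. It had the lowest DPYD (10.36), PRL (18.20) and TSHB (8.55) and the highest LUM (9.90) and PITX1 (14.83) of its group. Creole TN replicate 1 had the highest GPM6B (10.29) and the lowest TSHB (10.57).

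Mitochondrial transcripts gave 5. Creole TN replicate 3 was the highest of its group for CYTB (17.81) and ND2 (14.78), Creole HS replicate 5 for ND1 (17.11) and ND2 (14.99), and F1 HS replicate 2 for ND1 (17.44).

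The other F1 values were the highest HSF2 in TN replicate 4 (8.42) and the lowest UQCRC2 in TN replicate 3 (11.68). In the parental groups the lowest values were MTRF1 in Large White TN replicate 4 (8.20), MVK in Creole HS replicate 6 (11.61), NUDT9 in Creole HS replicate 6 (9.85) and in Large White HS replicate 4 (10.92), and OAZ3 in Large White HS replicate 3 (7.31), the array with conflicting labels.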

How the results depend on the processing

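The alternatives run kept the sign of each named mid-parent difference that was called, while the uncalled GH1, POMC, OAZ3, SLC44A4 and additive SELENOF probes changed sign in some, and no setting made a probe pass for a change between temperatures. Without a temperature term and with a linear mid-parent that change has no value. The count of probes off the mid-parent was 1252, and 2172 with array weights. Overdominant probes (62) numbered 116 with slide as a fixed block, 116 as a random block and 208 with array weights. Underdominant probes (149) numbered 83 from the processed signal and 386 with array weights. Probes matching Large White (106) numbered 163, 164 and 213 under the slide blocks and array weights, and 35 with the array of conflicting labels taken as Creole. Probes matching Creole (21) numbered 35, 36 and 49 under the slide blocks and array weights. The processed signal gave 432 higher and 446 lower probes (49.2% higher against 37.5%). In the gene lists 19 genes were called by the brightest probe and 32 by the mean of all probes. The cause of these shifts was not tested.

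Leaving out 1 array gave 515 to 2167 probes off the mid-parent. The arrays that moved it by over 1.5 times were F1 HS replicates 1 (697), 2 (515), 3 (2167) and 5 (791) and F1 TN replicates 2 (758), 4 (710) and 5 (830). Overdominant counts ran from 23 to 123, with F1 HS 1 (25), 2 (23), 3 (123) and 4 (105), F1 TN 2 (32), 4 (35) and 5 (38), and Large White TN 3 (27) and 4 (29). Underdominant counts ran from 55 to 420, with F1 HS 1 (60), 2 (55), 3 (420), 4 (350) and 5 (66), F1 TN 1 (227), 2 (63), 4 (61) and 5 (79), Large White TN 3 (89) and 4 (91), and Large White HS 1 (93), 2 (87) and 6 (95). Matches to Large White ran from 38 to 163, with F1 HS 1 (55) and 2 (38), F1 TN 2 (57), 4 (56) and 5 (68), and Creole TN 2 (163). Matches to Creole ran from 9 to 42, with F1 HS 1 (11), 2 (9), 3 (36) and 5 (9), F1 TN 2 (12) and 4 (12), Large White TN 1 (13), Large White HS 4 (42) and 6 (12), and Creole TN 5 (13). No probe passed for a change between temperatures in any of the 33 fits (0 to 0).

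Of 57 named probes that were called, 39 stayed called in all 33 of these fits. CXCL10 lost its call in 23, NUDT9 in 22, PCSK1N and RIDA in 21 each, MVK in 20, RBM7 in 17 and C3 in 7. HSF2 and RFESD lost it in 6 each, NDUFS4, THRB and UQCRC2 in 5 each, and SLCO2B1 and RPL17 in 4 each. CHI3L1 and MRPL2 lost it in 2 each, and APOD and GALNT1 in 1 each. The processed signal ended 17 calls, EEF1A1, TPT1, RPL7, GPX4 and PITX1 among them, and the mean of all probes 12. With a linear mid-parent ODF3B was not called (0.71, limma adjusted p = 0.0553). No paired analysis was possible because replicate numbers only name arrays in accession order.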
